A study of Mus musculus with 8 samples.

Results

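The level of a cytokine mRNA depends on how fast it is made and on how fast it is destroyed, and the mRNAs of 10 proteins that act on the second step were followed here in activated macrophages with and without ursodeoxycholic acid (UDCA), a secondary bile acid. These genes were chosen by name as regulators of cytokine mRNA decay, with earlier results of these data known. All 10 were found among the 55487 genes of the deposited table. With UDCA, 6 of the 10 mRNAs were lower, 3 were higher and 1 did not pass the test, where 32.3% of all genes tested were lower and 40.2% were higher. The results for Zfp36l1, Rc3h1 and Elavl1 did not hold under every alternative processing described below. Zfp36l2 fell by the largest factor of the 10, from 20.45 ± 1.9 to 8.588 ± 0.212 TPM (mean ± SD, n = 4 libraries per group). The Regnase mRNAs moved in opposite directions, since Zc3h12a fell from 34.52 ± 1.66 to 17.3 ± 3.62 TPM while Zc3h12c rose from 11.99 ± 1.86 to 22.52 ± 1.52 TPM.

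Many cytokine mRNAs carry AU-rich elements in the 3′ untranslated region (3′ UTR), and proteins of the ZFP36 family bind these elements and recruit the CCR4-NOT complex, which removes the poly(A) tail. AUF1 (Hnrnpd) and KSRP (Khsrp) also bind AU-rich elements and are mostly known to promote decay, while HuR (Elavl1) binds the same kind of element and is known to stabilise the mRNA. A further set of inflammatory mRNAs carries a short stem-loop that is recognised by the endonuclease Regnase-1 (Zc3h12a) and by the Roquins (Rc3h1, Rc3h2). Several of these regulators are themselves induced by inflammatory signals and are controlled by phosphorylation or cleavage, which mRNA levels do not show.

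The cells were J774A.1, a mouse macrophage line, and the study asked how UDCA changes the response of these cells to lipopolysaccharide (LPS), a bacterial cell wall component. In the LPS group, 4 libraries came from cells given LPS at 1 μg/mL for 24 h. In the LPS + UDCA group, 4 libraries came from cells given the same LPS together with UDCA at 1 mM for 24 h. Both groups therefore carried LPS, and no library without LPS was analysed here, so the values compare UDCA with no UDCA in activated cells of 1 line at 1 time and 1 dose. The labels give separate samples but do not say whether these were separate cultures, so p-values measure the spread between these samples, which may be technical.

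Values are in TPM, which divides a gene's reads by its length and scales by the library total, so levels can be compared between genes. TPM carries no read numbers and leaves sequencing depth unknown, and errors are the SD over libraries. The deposited values summed to between 973190 and 977485 TPM in the LPS libraries and to between 958918 and 962737 TPM in the UDCA libraries, a small difference that follows treatment, and rescaling every library to 1000000 changed no call on the 10 genes other than that of Zfp36l1. Among the 28 pairs of libraries, 0 were identical. Fold changes are differences of log2(TPM + 1), LPS + UDCA minus LPS, a scale that makes changes of low genes look smaller than they are. They were tested with limma over the 11796 genes averaging 1 TPM or more, and the false discovery rate (FDR) is the Benjamini-Hochberg adjusted p over all of them. In bulk RNA, fewer cells with a transcript and less of it per cell cannot be told apart.

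The libraries held macrophage RNA. Of 10 macrophage markers, 9 were at or above the filter on low values and Mertk was listed at 0 in all 8 libraries. The 6 fibroblast, 5 epithelial and 7 T and B cell markers were under 1 TPM in every library. Of these 9, 4 were higher and 5 lower with UDCA, beside the 40.2% and 32.3% of all genes. Their summed level was 4240 to 4472.5 TPM with LPS and 2081.2 to 2337.9 TPM with UDCA. The integrin Itgam (log2 fold change -2.91) and the lysozyme Lyz2 (-2.19) were the lowest, and the Fc receptor Fcgr1 (1.48) and the F4/80 antigen Adgre1 (1.27) the highest. The part of this shift in the results on the decay regulators was not tested.

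Fold changes also followed annotated transcript length, though weakly (Spearman's rho 0.12 over 11765 genes), and this touches the regulators with long mRNAs. With the genes tested split by transcript length into 4 classes of near-equal size, the median log2 fold change was -0.0451, 0.0283, 0.0929 and 0.234 from the shortest to the longest class. Within each library, the longest class lay between 0.03 and 0.22 below the shortest in the LPS group (log2 scale, medians of deviations from each gene's mean), with LPS replicate 1 nearest to 0, and between 0.098 and 0.19 above it in the UDCA group. Zc3h12c, Rc3h1, Rc3h2, Elavl1 and Hnrnpd are in the longest class (4206 to 40378 bases), and Zfp36, Zfp36l1, Zfp36l2, Zc3h12a and Khsrp in the next (2714 to 4204 bases). Values with this length trend removed from each library are therefore given in the text for the regulators of the longest class and for Khsrp. This alternative was added after the values were seen. Zfp36, Zfp36l1, Zfp36l2 and Zc3h12a kept direction and call under it.

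The 3′ UTRs of several regulators hold sequences of the kinds that such proteins are known to bind. Neither the nonamer nor the stem-loop searched for here was found in Khsrp or Hnrnpd. Sequences are shown here because the 3 ZFP36 family mRNAs and the HuR mRNA carry the nonamer UUAUUUAUU (TTATTTATT as DNA), as the Tnf mRNA does. The nonamer was searched on the transcript strand only, overlapping matches included, in 1 annotated transcript per gene (GENCODE M21, GRCm38), and it is printed as DNA with the nonamer in capitals. It is found in 749 of 10305 coding genes tested (7.27%), from 1.71% of those in the shortest of 4 classes of 3′ UTR length to 15.3% in the longest, and in 6 of the 10 regulators. Zfp36 has 1 match (chr7:28376951-28376979, minus strand), Zfp36l1 has 1 (chr12:80108167-80108195, minus strand) and Zfp36l2 has 1 (chr17:84184914-84184942, minus strand). Rc3h1 and Rc3h2 also have 1 each (chr1:160970043-160970071, plus strand, and chr2:37373287-37373315, minus strand). Elavl1 has 8, the first at chr8:4285788-4285816 on the minus strand, and Tnf has 5, the first at chr17:35199689-35199717 on the minus strand.
Zfp36: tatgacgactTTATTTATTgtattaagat
Zfp36l1: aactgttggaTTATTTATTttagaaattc
Zfp36l2: actatttaacTTATTTATTatcttgtgaa
Rc3h1: actttactcaTTATTTATTgagatgagga
Rc3h2: caaagacattTTATTTATTttactctgta
Elavl1: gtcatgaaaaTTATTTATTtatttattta
Tnf: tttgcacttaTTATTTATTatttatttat

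The stem-loop was searched as 6 Watson-Crick pairs around a loop of 3 bases, pyrimidine, purine, pyrimidine. It is found in the 3′ UTR of 932 of the 10305 coding genes (9.04%), from 1.55% in the shortest class of 3′ UTRs to 20.2% in the longest. Zc3h12a holds 3 matches in a 3′ UTR of 856 bases, Zc3h12c 1 in 4062 bases, Rc3h2 1 in 5160 bases and Rc3h1 4 in 7181 bases. The first match of Zc3h12a (chr4:125119063-125119089, minus strand), Zc3h12c (chr9:52113463-52113489, minus strand) and Rc3h2 (chr2:37373803-37373829, minus strand) is printed with the loop in capitals, beside those of the listed targets Tnf (chr17:35199579-35199605, minus strand) and Nfkbid (chr7:30428396-30428422, plus strand).
Zc3h12a: cctgttgatacaCATtgtatctctgtc
Zc3h12c: aataatctgaacCATgttcagcaaact
Rc3h2: ttaattaacttcTGTgaagttgtttac
Tnf: agacatgttttcTGTgaaaacggagct
Nfkbid: ctaggtgatttcTGTgaaatcgagccc
The first match of Rc3h1, with the loop TAT, lies in a run of alternating T and A and is not printed. The first matches of other listed stem-loop targets have the loops TAT (Nfkbiz, Tnfrsf4 and Tfrc) and TAC (Icos). Matches were also found in mRNAs listed only for AU-rich elements, with the loops TAT (Csf3) and CAT (Fos). Some listed stem-loop targets, among them Il6 and Lcn2, held no match. A match is a stretch of letters and was not tested as a binding site.

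Regulators that carry these elements were found on both sides. Of the 6 regulators with a nonamer, Zfp36, Zfp36l1 and Zfp36l2 were lower, Rc3h1 and Rc3h2 were higher, and Elavl1 did not pass the test, where 45.4% of all coding genes with a nonamer were higher and 27.2% lower. Of the 4 with a stem-loop, Zc3h12a was lower and Zc3h12c, Rc3h1 and Rc3h2 were higher, where 47.5% of all coding genes with a stem-loop were higher and 27.5% lower (median log2 fold change 0.175). With the length trend removed, Rc3h1 did not pass the test (-0.0655, limma FDR 0.31) and Elavl1 was lower (-0.276, limma FDR 0.0083). Over all coding genes tested, the median log2 fold change was 0.179 in genes with a nonamer and 0.0539 in genes without. The genes with a nonamer have longer 3′ UTRs (median 2143 against 916 bases), and within the 4 classes of 3′ UTR length neither kind was the higher throughout. From the shortest to the longest class the medians were -0.0187, 0.107, 0.0705 and 0.272 with a nonamer and -0.0912, -0.029, 0.137 and 0.223 without.

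Levels of the 10 mRNAs spread over more than 2 orders of magnitude in the LPS group. Zfp36 was the highest at 444.9 ± 4.08 TPM, followed by Hnrnpd, Elavl1, Khsrp, Zc3h12a and Zfp36l2, and in this order the ranges over libraries did not overlap between neighbours. Zc3h12c and Rc3h1 came next with overlapping ranges, although Zc3h12c was above Rc3h1 in 4 of 4 libraries. Zfp36l1 (5.58 to 6.29 TPM) and Rc3h2 (2.44 to 3.45 TPM) were the lowest. With UDCA the first 4 places kept their order, and the order below them changed. Zc3h12c moved above Zc3h12a in 4 of 4 libraries, with overlapping ranges. Zfp36l2 moved below Rc3h1 in 4 of 4 libraries, without overlap. Rc3h2 was above Zfp36l1 in 3 of 4 libraries, with overlapping ranges. The summed level of the 10 mRNAs was 815.1 ± 22.3 TPM with LPS and 643.7 ± 34.7 TPM with UDCA, and Zfp36 made up 54.6 ± 1.23% and 53.8 ± 1.48% of it.

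**Figure D1:**
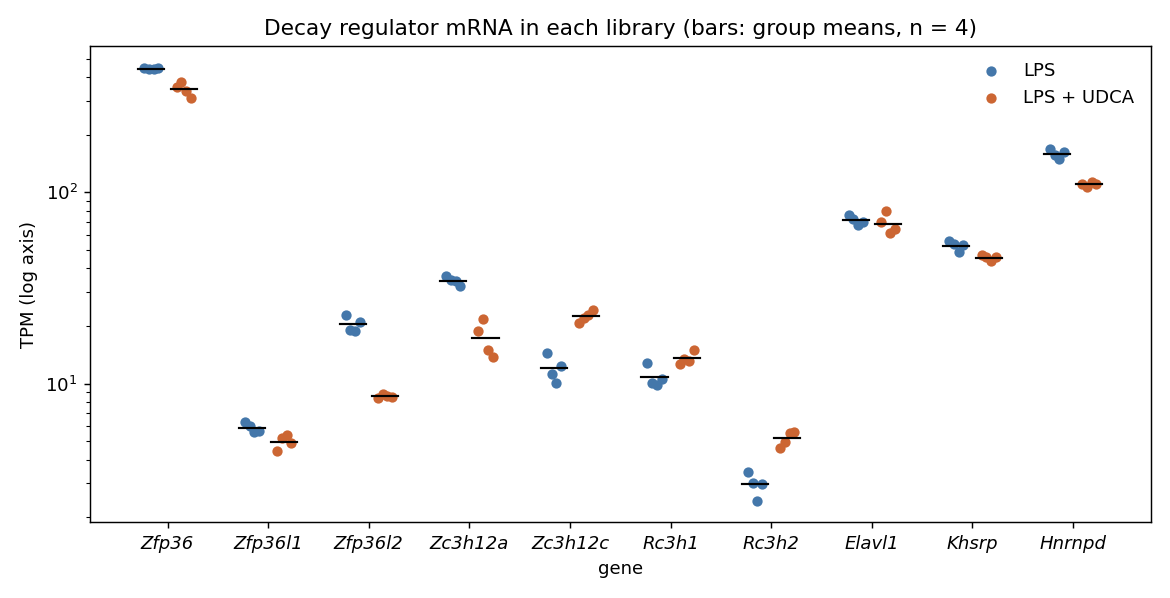
TPM of the 10 decay regulators (log axis) in each of the 4 LPS and 4 LPS + UDCA libraries (points), with the group means as bars. Zfp36l2, Zc3h12a and Hnrnpd lie lower and Zc3h12c and Rc3h2 higher with UDCA without overlap, while the Elavl1 and Rc3h1 points of the groups overlap.

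At an FDR under 0.05, 3 of the 10 regulators were higher with UDCA and 6 were lower, where 40.2% of all genes tested were higher and 32.3% were lower. With a fold change of at least 2 asked as well, 0 were higher and 1 was lower (Zfp36l2), where the shares of all genes were 8.71% and 8.44%. In 8 of the 10 the LPS and LPS + UDCA values did not overlap, where this held for 66.8% of all genes. With the length trend removed, 2 regulators were higher and 7 lower at an FDR under 0.05, beside 36.1% and 36.7% of all genes. No difference from the background is read from any of these counts. The median log2 fold change was -0.203 over the 10 regulators and 0.0817 over all genes tested. Exact permutation of the group names (70 arrangements) gave p = 0.029 for each of the 8 genes without overlap. This is the smallest 2-sided p that 4 libraries against 4 allow. Full separation of the groups always gives it, so it only restates the lack of overlap.

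**Figure D2:**
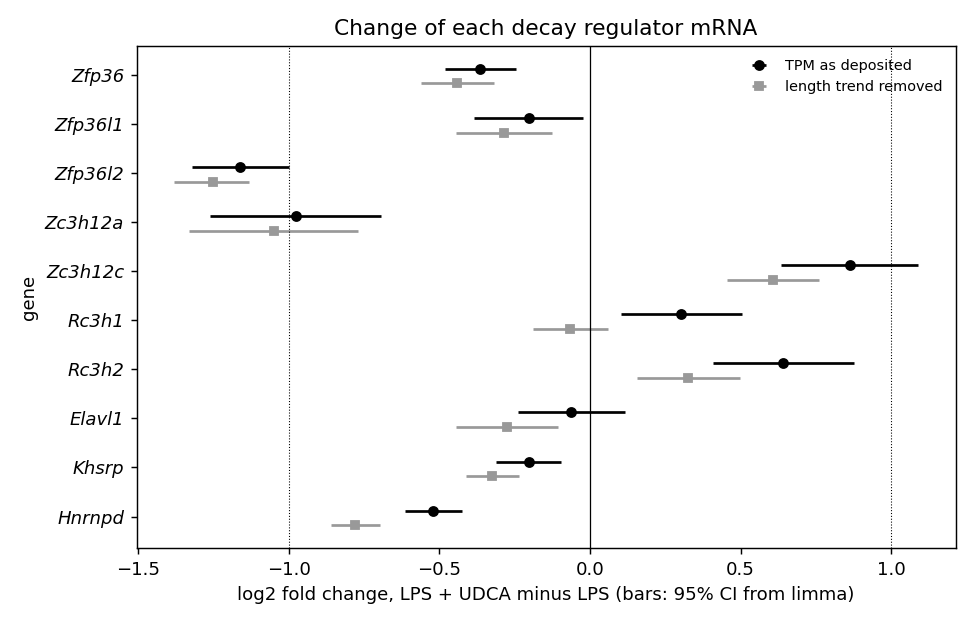
Log2 fold change (LPS + UDCA minus LPS) of each regulator with its 95% confidence interval from limma, from TPM as deposited (black circles) and with the length trend removed (grey squares); dotted lines mark a fold change of 2. Zfp36l2 and Zc3h12a lie furthest to the left and Zc3h12c furthest to the right, and Rc3h1 moves from 0.304 to -0.0655 when the length trend is removed.

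Zfp36 encodes tristetraprolin, the founding member of the ZFP36 family and a known brake on Tnf mRNA. It is on the minus strand of chromosome 7 (28376784 to 28380253, GRCm38). Its level was 445.8, 443, 440.58 and 450.09 TPM in LPS replicates 1 to 4 and 356.95, 377.28, 338.29 and 312.92 TPM in LPS + UDCA replicates 1 to 4. Every UDCA library lay below every LPS library, and the LPS libraries lay close together while the UDCA libraries were spread. Zfp36 fell by 0.36 on the log2 scale (SE 0.0525, limma FDR 1.89e-04), a ratio of the means of 0.779.

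Zfp36l2 encodes another family member that binds the same element. It lies on the minus strand of chromosome 17 (84183931 to 84187947). Its level was 22.87, 19.1, 18.78 and 21.05 TPM in the LPS libraries and 8.35, 8.86, 8.61 and 8.53 TPM in the UDCA libraries. The groups were far apart, and the UDCA libraries differed little from each other. The log2 fold change was -1.16 (95% CI -1.32 to -0.999, limma FDR 6.69e-07), lower than that of all but 6.86% of the genes tested. It was between -1.26 and -1.11 under all 18 alternatives tried.

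Zfp36l1, the least abundant of the family here, is on the minus strand of chromosome 12 (80107754 to 80113013). It was at 6.29, 5.99, 5.58 and 5.62 TPM with LPS and at 4.43, 5.16, 5.39 and 4.91 TPM with UDCA. The highest UDCA library, replicate 3, lay just under the lowest LPS library, replicate 3. The log2 fold change was -0.203 (SE 0.0797, limma FDR 0.043). This call was lost in 9 of 18 alternatives, among them leaving out LPS replicate 1, 2 or 4 (FDR 0.096, 0.092 and 0.059) or LPS + UDCA replicate 1, 2 or 4 (FDR 0.11, 0.054 and 0.078), and with a replicate block (FDR 0.11).

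The family as a whole was dominated by Zfp36. The 3 mRNAs summed to 471.2 ± 5.59 TPM with LPS, of which Zfp36 was 94.4 ± 0.399%, and to 359.9 ± 27.5 TPM with UDCA, of which it was 96.2 ± 0.314%. The balance within the family was read as differences of log2(TPM + 1) within each library, over 6 pairs of regulators in all, with exact permutation p adjusted over the 6. Zfp36 over Zfp36l2 went from 4.38 ± 0.12 to 5.18 ± 0.11, a shift of 0.79 (exact permutation test, adjusted p = 0.034). Zfp36l1 over Zfp36l2 went from -1.64 ± 0.10 to -0.685 ± 0.08, a shift of 0.95 (exact permutation test, adjusted p = 0.034). Zfp36l2 thus fell relative to both of its relatives, with no overlap between groups. Zfp36 over Zfp36l1 shifted by -0.16 (exact permutation test, adjusted p = 0.14), and its ranges, 5.94 to 6.09 and 5.73 to 6.04, overlapped.

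Zc3h12a encodes Regnase-1, an endonuclease that cuts inflammatory mRNAs at the stem-loop and is known to act on its own mRNA. It is on the minus strand of chromosome 4 (125118423 to 125127840). Its level was 36.52, 34.8, 34.27 and 32.48 TPM in the LPS libraries and 18.72, 21.72, 14.95 and 13.81 TPM in the UDCA libraries. The groups did not overlap, and replicates 3 and 4 were the lowest of the UDCA group. The log2 fold change was -0.976 (95% CI -1.26 to -0.694, limma FDR 8.52e-05), just inside a fold of 2. It was between -1.09 and -0.882 under the 18 alternatives, so the count of regulators past a fold of 2 moved between 1 and 2.

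Zc3h12c encodes Regnase-3, a related endonuclease known in macrophages. It spans 52111344 to 52168572 on the minus strand of chromosome 9. Its level was 14.41, 11.22, 10.03 and 12.3 TPM with LPS and 20.71, 22.15, 22.83 and 24.37 TPM with UDCA. Every UDCA library was above every LPS library, and LPS replicate 1 was the nearest. Zc3h12c rose by 0.865 on the log2 scale (95% CI 0.636 to 1.09, limma FDR 4.75e-05). With the length trend removed the value was 0.608 (limma FDR 3.99e-05). The remaining relatives were barely detected, with Zc3h12b at 0 to 0.08 TPM and Zc3h12d at 0.11 to 0.35 TPM, both under the filter.

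The Regnase pair had the largest shift of balance among the 6 pairs. Zc3h12a over Zc3h12c was 1.28, 1.55, 1.68 and 1.33 in the LPS libraries and -0.139, -0.027, -0.579 and -0.777 in the UDCA libraries (difference of log2(TPM + 1)). Zc3h12a was therefore the more abundant in every LPS library and the less abundant in every UDCA library. The shift was -1.84 (exact permutation test, p = 0.029, adjusted p = 0.034). With the length trend removed it was -1.66 (exact permutation test, adjusted p = 0.043), and the value of LPS + UDCA replicate 2 was then 0.0683, just above 0. As a share of the summed TPM of both, Zc3h12a made up 71.7% to 77.4% with LPS and 36.2% to 49.5% with UDCA. The sum itself differed far less, at 46.51 ± 3.04 TPM with LPS and 39.81 ± 2.79 TPM with UDCA.

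**Figure D3:**
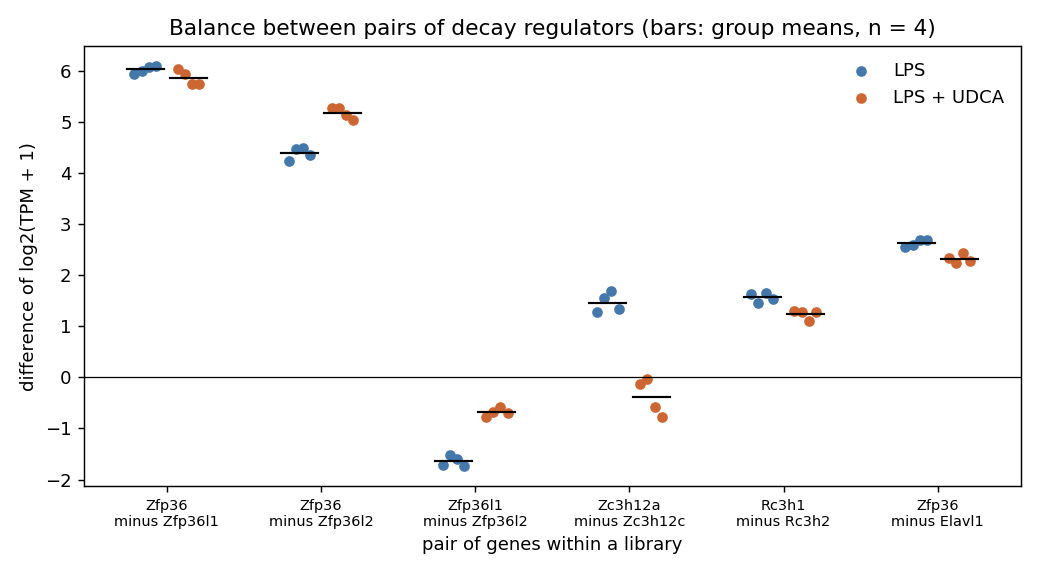
Difference of log2(TPM + 1) between the genes of each of the 6 pairs within a library, for the 4 LPS and 4 LPS + UDCA libraries (points), with the group means as bars. Zc3h12a minus Zc3h12c crosses 0, from 1.46 ± 0.19 to -0.38 ± 0.36, while Zfp36 minus Zfp36l1 overlaps between groups.

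The Roquins bind the stem-loop and bring in deadenylation and decapping factors, and their mRNAs are the longest of the 10. Rc3h1 is on the plus strand of chromosome 1 (160906418 to 160974978), and its level was 12.77, 10.01, 9.83 and 10.61 TPM with LPS and 12.72, 13.41, 13.07 and 14.9 TPM with UDCA. LPS replicate 1 lay within the UDCA range, and the other LPS libraries lay below it. Rc3h1 was higher by 0.304 on the log2 scale (SE 0.0887, limma FDR 0.012), with p = 0.057 in the exact permutation test. This direction did not hold with the length trend removed, where the value was -0.0655 (95% CI -0.19 to 0.0593, limma FDR 0.31).

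Rc3h2 is on the minus strand of chromosome 2 (37370069 to 37422903). It was at 3.45, 3, 2.44 and 2.98 TPM with LPS and at 4.62, 4.97, 5.54 and 5.59 TPM with UDCA. The groups did not overlap. Rc3h2 rose by 0.642 on the log2 scale (SE 0.104, limma FDR 3.92e-04), and by 0.326 with the length trend removed (limma FDR 0.0037). Rc3h1 over Rc3h2 went from 1.57 ± 0.088 to 1.23 ± 0.086 (exact permutation test, adjusted p = 0.034), and the share of Rc3h1 in the summed TPM of both went from 78.5 ± 1.33% to 72.3 ± 1.41%.

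**Figure D4:**
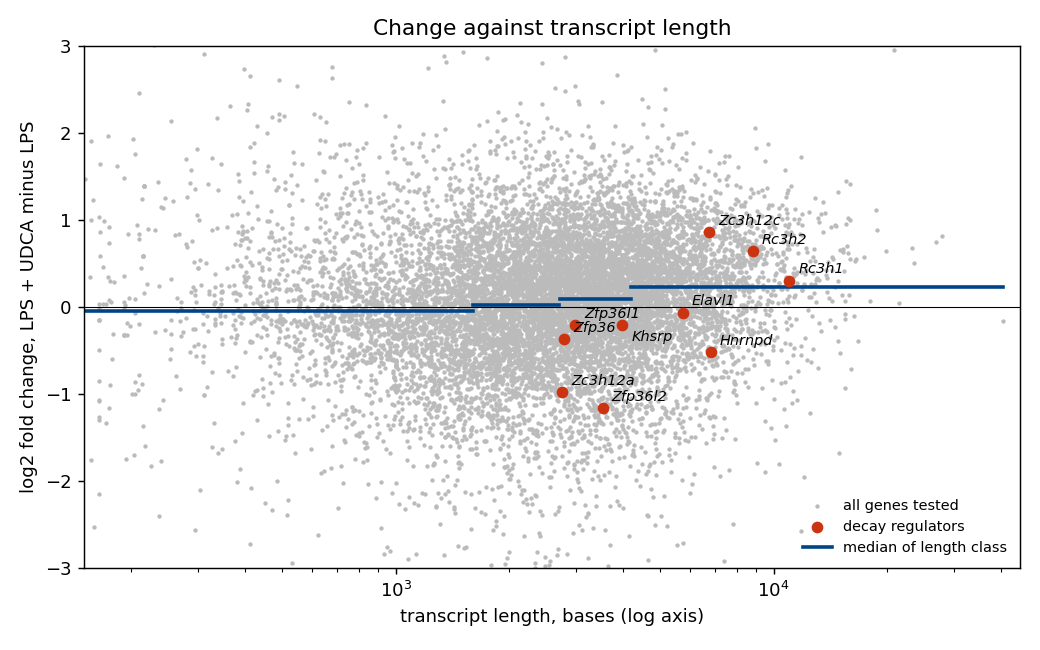
Log2 fold change (LPS + UDCA minus LPS) against transcript length in bases (log axis) for 11765 genes, 100 of which lie outside the axes, with the 10 regulators in red and the median of each length class as a blue line. The class medians rise from -0.0451 to 0.234, and Rc3h1 lies close to the line of its class while Zfp36l2, Zc3h12a, Zc3h12c and Hnrnpd lie away from theirs.

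Elavl1 encodes HuR, the stabiliser among the AU-rich element binding proteins of this group. It is on the minus strand of chromosome 8 (4285382 to 4325413). Its level was 75.95, 72.96, 67.77 and 69.61 TPM with LPS and 69.74, 79.67, 61.62 and 63.99 TPM with UDCA. The groups overlapped, and the highest of all 8 values was in LPS + UDCA replicate 2. The log2 fold change was -0.0627 with a 95% CI of -0.24 to 0.115 (limma FDR 0.49, exact permutation p = 0.6), so a change of that size in either direction was not excluded at this spread. With the length trend removed the value was -0.276 and passed the test (limma FDR 0.0083). Zfp36 over Elavl1, the decay factor over the stabiliser, went from 2.62 ± 0.071 to 2.32 ± 0.091 on the log2 scale, a shift of -0.301 without overlap (exact permutation test, adjusted p = 0.034). This shift was -0.163 with the length trend removed and then did not pass the test (exact permutation test, p = 0.057, adjusted p = 0.069).

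Hnrnpd encodes AUF1, and it lies on the minus strand of chromosome 5 (99955935 to 99978938). Its level was 168.79, 156.63, 150.12 and 162.02 TPM with LPS and 111.33, 107.09, 113.8 and 111.15 TPM with UDCA. The UDCA libraries lay close together and well below the LPS libraries. Hnrnpd fell by 0.519 on the log2 scale (SE 0.0423, limma FDR 4.33e-06), and the value was -0.778 with the length trend removed. Khsrp encodes KSRP, a KH-domain protein that recruits decay enzymes, and lies on the minus strand of chromosome 17 (57021051 to 57031522). Its level was 49.06 to 55.51 TPM with LPS and 43.53 to 46.96 TPM with UDCA, without overlap. Khsrp fell by 0.203 on the log2 scale (SE 0.0481, limma FDR 0.004), and by 0.324 with the length trend removed.

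Reads of genes that overlap or resemble the regulators could add to or be lost from their values. Annotated genes on the opposite strand overlap 7 of the 10 regulators, and whether the counting used strand is not given in the sources used here. Of the overlapping genes in the table, the highest were Ccl25 at Elavl1 (3.95 to 5.53 TPM with LPS, 2.65 to 4.52 TPM with UDCA) and Gm17092 at Hnrnpd (0.53 to 1.59 TPM with LPS, 1.27 to 2.28 TPM with UDCA). The others listed reached at most 0.14 TPM. Words of 31 bases shared with transcripts of other genes made up from 0% of the words of Zc3h12c and Rc3h1 to 6.92% of those of Khsrp, with 6.79% for Zfp36l1 and 3.32% for Zfp36.

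The genes whose levels followed Zfp36l2 most closely over the 8 libraries were Plcd3, a phospholipase C (Pearson's r 0.9994 on log2(TPM + 1), log2 fold change -1.54), Actn4, an actin crosslinker (r 0.9985, -0.957), and Eif3l, a translation initiation factor subunit (r 0.9982, -0.56). Since the libraries fall into the treatment groups, such a likeness is common, and 1449 of the 7064 genes compared had r above 0.95. The values are a description and carry no test.

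The enzymes that carry out decay included called genes in both directions. Among 18 genes of the CCR4-NOT and PAN deadenylation machinery, 6 were higher and 5 lower (FDR under 0.05), near the 40.2% and 32.3% of all genes, with a median log2 fold change of 0.124. Cnot10, a CCR4-NOT subunit, fell from 33.54 ± 0.971 to 15.79 ± 1.31 TPM (log2 fold change -1.04). Btg1, which is known to bind the deadenylase, was also lower (-0.446), while its close relative Btg2 rose from 24.04 ± 1.7 to 47.79 ± 2.58 TPM (0.964). Cnot4, a ubiquitin ligase of the complex, was higher by 0.72.

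Of 17 genes of decapping and 5′ to 3′ decay, 5 were higher and 7 lower, beside 40.2% and 32.3% of all genes, with a median of -0.149 (all genes 0.0817). The Lsm ring that binds shortened tails was lower in its subunits Lsm2, from 85.46 ± 1.61 to 27.37 ± 1.42 TPM (log2 fold change -1.61), and Lsm1 (-0.709). The exonuclease Xrn1 rose from 1.36 ± 0.221 to 4.938 ± 0.426 TPM (1.33), and the helicase Ddx6 from 27.73 ± 3.07 to 67.53 ± 3.77 TPM (1.26). Of 14 tested genes of the RNA exosome and the SKI complex, which degrade from the 3′ end, 3 were higher and 8 lower, beside the same shares of all genes, with a median of -0.259. The core subunits Exosc8 (-0.974) and Exosc2 (-0.695) were the lowest, and the cytoplasmic nuclease Dis3l (1.03) and the SKI scaffold Ttc37 (0.812) the highest. Over these 3 lists together, 14 of 49 genes were higher and 20 lower, beside 40.2% and 32.3% of all genes. The counts were 14 and 24 with the length trend removed, beside 36.1% and 36.7% of all genes.

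Among 19 tested other regulators of cytokine mRNA stability or translation, 12 were higher and 5 lower, beside 40.2% and 32.3% of all genes. The median log2 fold change was 0.302. These counts are given without removal of the length trend, and in the longest class of transcripts 49.6% of genes were higher and 23.1% lower. Tia1, which is known to repress Tnf translation, rose from 6.712 ± 1.25 to 16.36 ± 1.26 TPM (1.18), and Cpeb4, which binds cytoplasmic polyadenylation elements, from 5.572 ± 0.885 to 13.82 ± 1.62 TPM (1.18). Celf2 (-0.699) and Hnrnpab (-0.495), both RNA-binding proteins, were the lowest.

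Among 14 tested kinases, phosphatases, proteases and adaptors that act on the decay factors, 7 were higher and 6 lower, beside 40.2% and 32.3% of all genes, with a median of 0.0375. Mapkapk2, the kinase MK2 that phosphorylates tristetraprolin, fell from 290.4 ± 10.2 to 165.7 ± 11.3 TPM (log2 fold change -0.808). Malt1, a protease known to cleave Regnase-1 and the Roquins, was higher (0.717), as was Irak1, a kinase of the Toll-like receptor pathway (0.663).

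Of the mRNAs these factors are known to act on, 19 cytokine and immediate early mRNAs listed for AU-rich elements were tested. Of these, 15 were lower and 3 higher, beside 32.3% lower and 40.2% higher among all genes, with a median of -1.37. This list, like the others, was chosen with earlier results of these data known. It holds genes, among them Tnf, Ccl2 and Csf3, that the study names as suppressed by UDCA in these cells. Its counts are therefore partly set by the choice of genes. The lowest were Csf3 (-5.89) and Ccl2 (-3.65) and the highest Il23a (2.82) and Il6 (1.32). The study reports Il6 mRNA, in a separate assay, as suppressed by UDCA in these cells after the same treatment time. In these libraries Il6 went the other way, from 95.83 ± 7.67 TPM with LPS to 241.3 ± 20.3 TPM with UDCA. The reason for this difference was not tested. Of 8 tested stem-loop mRNAs, a list that shares Il6, Tnf and others with the first and includes Zc3h12a itself, 5 were lower and 2 higher, beside the same shares, with a median of -0.618. Nfkbid (-1.8) and Tnf (-1.69) were the lowest, and Il6 and the siderophore-binding Lcn2 (0.731) the highest. The stem-loop search described above gave no match in Il6 or Lcn2, so the list is not the set of genes with a match. The AU-rich list is likewise not the set of genes with a nonamer, since that search gave no match in Csf3, Ccl2 or Il6. Steady-state levels do not separate synthesis from decay, and mRNA half-lives were not measured in these libraries.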

How the data were processed

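RNA-seq of J774A.1 cells was analysed from 8 libraries in 2 groups, mapped by their sample labels. The authors deposited 1 table of TPM per gene and library, with 2 decimals, and the unit was inferred from the values. The submitters' processing notes name Bowtie 0.12.2, mm10 and GRCm38, and the methods name a commercial cloud platform. The counting program is not given in the sources used here, and the methods' general statistics section names no test for the sequencing itself. A count test had been considered in case the files held counts, and it was not used because they hold TPM.

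Genes averaging 1 TPM or more (11796) were fitted as log2(TPM + 1) with limma 3.58.1 in R 4.3.3 (lmFit, eBayes with trend) and p-values adjusted by Benjamini-Hochberg, with an FDR threshold of 0.05 and the methods' fold change minimum of 2 as a second rule. Balances between pairs were compared by exact permutation, 2-sided. Transcripts, 3′ UTRs and positions were from GENCODE M21 (GRCm38). The gene list members and all other lists were chosen with earlier results of these data known. Named genes were the 10 regulators, the 2 highest and the 2 lowest called genes of each other list, the cell type markers and the 3 genes most like the regulator with the largest change (averaging 10 TPM or more). Genes outside this rule (Zc3h12b, Zc3h12d and the overlapping genes Ccl25 and Gm17092) were named after their values were seen. A gene named by this rule is not reported here. The fit was tested on simulated data. It recovered 73% of 100 genes changed by 0.5 on the log2 scale and 93% of 100 genes changed by 1. Of 11596 unchanged genes, 6 were called. Alternatives covered scaling, the filter, the pseudocount, the variance trend, a replicate block, each library left out, fold minimums and, added after the values were seen, a lowess trend on transcript length. Tables and figures were made in Python 3.11.15 with pandas 2.3.3 and matplotlib 3.10.9.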

Additional observations from a re-analysis of the deposited data

How the results depend on the processing

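TPM keeps no depth, so counting error could not be computed, and 4 libraries per group limit the exact tests to p = 0.029. Median-of-ratios scaling moved the median log2 fold change of all genes from 0.0817 to -0.0162, and changes read relative to that median shift with it. Zfp36, Zfp36l2, Zc3h12a, Zc3h12c, Rc3h2, Khsrp and Hnrnpd kept direction and call under all 18 alternatives. Zfp36l1 lost its call in 9 of them (FDR up to 0.11). With the length trend removed, Rc3h1 reversed to -0.0655 (FDR 0.31), Elavl1 passed at -0.276 (FDR 0.0083), the shift of Zfp36 over Elavl1 was -0.163 (exact permutation p = 0.057), and the cause of the length trend was not tested. The regulators lower by a fold of at least 2 numbered 1, and 2 with the length trend removed, with median-of-ratios scaling, with quantile normalization, with a pseudocount of 0.1 or with a fold minimum of 1.5, where Zc3h12a is near the limit. Leaving out 1 library gave 1 to 2. With no fold minimum 6 were lower. The regulators higher by a fold of at least 2 numbered 0, with 2 at a fold minimum of 1.5 and 3 with no minimum. The deviations of libraries with the same replicate number correlated at -0.0354 to 0.146 (mean 0.0877). Those with other numbers correlated at -0.145 to 0.162 (mean -0.0292). The ranges overlap although the means differ, and the numbers were not taken as pairs. With a replicate block 3 regulators were higher and 5 lower, with Zfp36l1 losing its call.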
